A study of Rattus norvegicus with 18 samples.

Results

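Transcripts of hemoglobin and other red cell genes were measured by RNA-seq in the lungs of 18 rats. They were given as 7 gene symbols, *Hba-a1*, *Hba-a2*, *Hbb*, *Hbb-b1*, *Alas2*, *Slc4a1* and *Ahsp*, and 6 of them matched a row among the 22081 genes of the deposited tables. *Hbb-b1* matched no row and was not analysed here. The symbols were selected on earlier results of these same libraries, which compared MWCNT-treated with control rats, so the differences between treatments are described for them without a test.

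The animals were male F344 rats (F344/DuCrlCrlj), 3 per treatment at each of 3 time points, Years 0.5, 1 and 2 of dosing. The treatment was MWNT-7, a multiwalled carbon nanotube (MWCNT), instilled into the trachea at 0.5 mg/kg every 4 weeks from 9 weeks of age, and control rats received the vehicle, saline with Tween 80, on the same schedule. RNA came from small pieces of the accessory lobe without tumor nodules, and each library was 1 animal. Total counts per rat ranged from 13297643 to 21130757, and 434, 587 and 1181 genes were called lower and 869, 880 and 1174 higher in MWCNT-treated rats at Years 0.5, 1 and 2. Genes were called where the Benjamini-Hochberg FDR of the edgeR quasi-likelihood test was under 0.05 and the log2 fold change exceeded 1 in size. Scaling by library size alone moved the median log2 fold change, taken over every tested gene, from -0.02, 0.00 and -0.01 to -0.12, -0.13 and -0.18, and the calls to 643, 895 and 1583 lower and 760, 739 and 948 higher.

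Adult hemoglobin is a tetramer of alpha and beta globin chains around heme. Red cell precursors make these chains in the bone marrow, and mature mammalian red cells in the circulation lack a nucleus. Reticulocytes, the youngest circulating red cells, still carry RNA, and globin mRNA makes up most of it. *Alas2* encodes the erythroid 5-aminolevulinate synthase, which catalyses the first step of heme synthesis in these cells. *Slc4a1* encodes band 3, the chloride-bicarbonate exchanger of the red cell membrane, and *Ahsp* encodes a chaperone that binds free alpha globin. A piece of lung contains the blood that its vessels hold at dissection. The rats had been killed by exsanguination from the abdominal aorta, and the blood left in each piece was not measured here. The levels are relative to all RNA of a library. In bulk tissue, fewer red cells, less RNA per red cell and more RNA from other cells therefore cannot be told apart.

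The genes lie in the rn6 genome as follows. *Hba-a1* (ENSRNOG00000029886) and *Hba-a2* (ENSRNOG00000047321) are neighbours on chromosome 10, at chr10:15602794-15603649 and chr10:15589364-15590220 on the minus strand. *Hbb* (ENSRNOG00000058105) is at chr1:168971274-168972725 on the minus strand. *Alas2* (ENSRNOG00000000167) is at chrX:23167696-23187341, *Slc4a1* (ENSRNOG00000020951) at chr10:90296141-90312386, both on the minus strand, and *Ahsp* (ENSRNOG00000020165) at chr1:199720038-199721010 on the plus strand. The alpha globin genes are near-identical copies. *Hbb-bs*, a further beta globin gene, neighbours *Hbb* and is listed at chr1:168945449-168965566 on the plus strand. The assignment of reads among such genes is uncertain. Sums of *Hba-a1*, *Hba-a2* and *Hbb* are given beside the single genes and leave out *Hbb-bs*.

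The upstream sequences of the globin genes are shown because the globins moved together from rat to rat. They are the 250 bases before the annotated start from RefSeq in the GRCr8 build, which differs from the build of the deposited tables, and are written 5′ to 3′ on the strand of the gene. The windows are chr10:15842581-15842830 for *Hba-a1*, chr10:15829139-15829388 for *Hba-a2* and chr1:167663722-167663971 for *Hbb*. Capitals mark 4 short motifs or their reverse complements. They are the GATA factor core GATAA, the CACCC of the Krüppel-like factors, the CCAAT box and the TATAA of a TATA box.
Hba-a1: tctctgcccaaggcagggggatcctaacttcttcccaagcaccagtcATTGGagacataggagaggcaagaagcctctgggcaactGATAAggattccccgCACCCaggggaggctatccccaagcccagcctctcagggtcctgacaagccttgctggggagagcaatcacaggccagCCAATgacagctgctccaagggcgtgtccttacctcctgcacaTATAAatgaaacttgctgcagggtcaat
Hba-a2: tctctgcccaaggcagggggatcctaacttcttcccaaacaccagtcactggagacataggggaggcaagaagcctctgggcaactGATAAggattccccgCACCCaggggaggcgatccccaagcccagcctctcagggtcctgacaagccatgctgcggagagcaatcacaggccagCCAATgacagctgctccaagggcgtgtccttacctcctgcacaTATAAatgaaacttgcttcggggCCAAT
Hbb: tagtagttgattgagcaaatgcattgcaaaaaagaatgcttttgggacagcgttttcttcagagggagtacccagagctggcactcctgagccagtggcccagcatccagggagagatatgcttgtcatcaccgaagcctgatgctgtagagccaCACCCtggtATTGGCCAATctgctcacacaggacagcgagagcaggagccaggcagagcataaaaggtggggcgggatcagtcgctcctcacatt

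The windows of *Hba-a1* and *Hba-a2* were equal at 241 of 250 bases. Both held a GATAA from 164 bases and a CACCC from 149 bases before the start, a CCAAT from 71 bases and a TATAA from 28 bases. A further CCAAT match lay 203 bases before the start of *Hba-a1*, on the other strand, and 5 bases before that of *Hba-a2*. *Hbb* held a CACCC from 95 bases and an adjacent pair of CCAAT matches, 1 on each strand, from 86 and 81 bases before the start. None of the matches overlapped another. On either strand, GATAA was found in 23.5%, CACCC in 49.2%, CCAAT in 34.0% and TATAA in 24.0% of the 33469 windows of the same length in the table. These matches are letters in a window and were not linked to the levels.

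*Hba-a1* had the highest level of the 6 genes in TPM, which is scaled for gene length, followed by *Hbb*, *Hba-a2*, *Alas2*, *Ahsp* and *Slc4a1*. In the control rats, in the order of the replicates, *Hba-a1* was at 10658, 10645 and 8656 TPM at Year 0.5, at 11900, 9093 and 11227 TPM at Year 1, and at 22493, 18782 and 14561 TPM at Year 2. In the MWCNT-treated rats, it was at 4012, 2235 and 5483 TPM at Year 0.5, at 4287, 3528 and 4864 TPM at Year 1, and at 2463, 4378 and 5318 TPM at Year 2. Every treated rat lay below every control rat, whatever the time point, and the highest control rats were those of Year 2. The mean level was 2.55, 2.54 and 4.59 times lower in the treated rats at Years 0.5, 1 and 2.

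*Hbb* followed the same pattern. Its levels in the control rats were 6411, 6350 and 5204 TPM at Year 0.5, 7200, 5439 and 6748 TPM at Year 1, and 12193, 10310 and 8631 TPM at Year 2. In the MWCNT-treated rats they were 2442, 1261 and 3306 TPM, then 2607, 2222 and 2824 TPM, and 1459, 2558 and 3248 TPM. The lowest treated rats were replicate 2 of Year 0.5 and replicate 1 of Year 2, and the highest treated rat was below the lowest control rat. *Hba-a2*, the second alpha globin gene, ranged from 3304 to 8444 TPM in control and from 858 to 2154 TPM in MWCNT-treated rats, again without overlap.

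**Figure D1:**
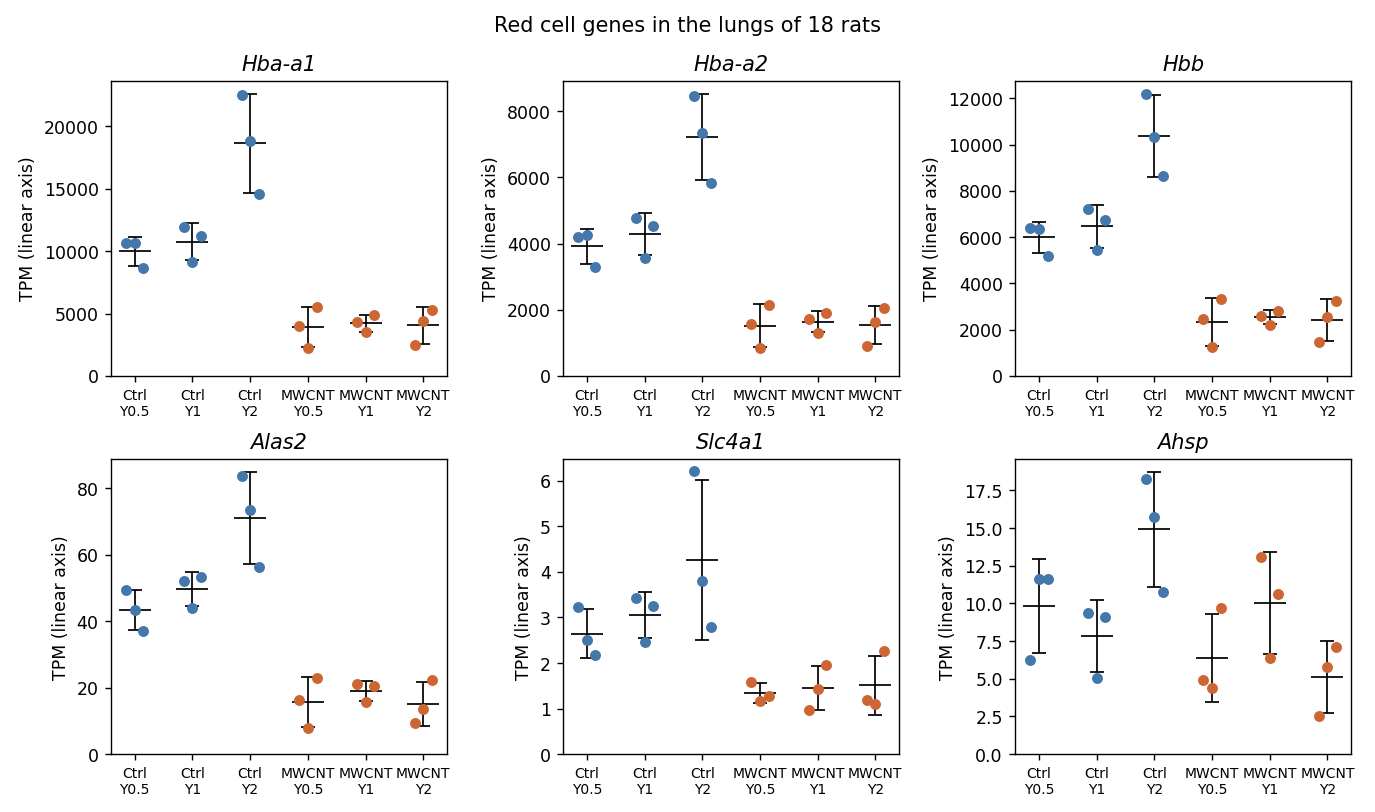
Levels of the 6 red cell genes in TPM (linear axes from 0), with 1 point per rat and bars for the mean ± SD of 3 rats. Blue points are control (Ctrl) and orange points MWCNT-treated rats at Years 0.5, 1 and 2 (Y0.5, Y1, Y2). The globins and Alas2 were highest in the control rats of Year 2 and had no treated rat among the control rats, whereas the Ahsp levels of the treatments overlapped at Years 0.5 and 1.

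*Alas2* lay far below the globins in level and showed the same order of groups. In the control rats it was at 49.4, 43.5 and 37.2 TPM at Year 0.5, at 52.3, 43.9 and 53.3 TPM at Year 1, and at 83.6, 73.5 and 56.3 TPM at Year 2. In the MWCNT-treated rats it was at 16.3, 7.96 and 22.8 TPM, then at 21.1, 15.6 and 20.6 TPM, and at 9.40, 13.5 and 22.3 TPM. The rats with the least globin, replicate 2 of Year 0.5 and replicate 1 of Year 2, were also those with the least *Alas2*. All 9 MWCNT-treated rats were below all 9 control rats for *Hba-a1*, *Hba-a2*, *Hbb* and *Alas2*, as were 19.6% of the 14843 genes tested over the 18 rats.

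*Slc4a1* and *Ahsp* were low, with 39 to 221 and 11 to 75 counts per rat, and counting error weighs more on them. *Slc4a1* was at 3.23, 2.50 and 2.18 TPM at Year 0.5, 3.43, 2.47 and 3.25 TPM at Year 1, and 6.21, 3.79 and 2.79 TPM at Year 2 in the control rats. In the MWCNT-treated rats it was at 1.58, 1.17 and 1.27 TPM, then at 0.98, 1.43 and 1.95 TPM, and at 1.18, 1.10 and 2.26 TPM. The groups did not overlap within a time point, and 8 of the 9 treated rats were below all control rats.

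*Ahsp* stood apart from the other 5 genes. It was at 6.26, 11.6 and 11.7 TPM at Year 0.5, 9.33, 5.06 and 9.12 TPM at Year 1, and 18.3, 15.8 and 10.8 TPM at Year 2 in the control rats. In the MWCNT-treated rats it was at 4.95, 4.41 and 9.73 TPM, then at 13.1, 6.38 and 10.6 TPM, and at 2.50, 5.78 and 7.11 TPM. The treatments overlapped at Years 0.5 and 1 and were separate at Year 2, and at Year 1 the treated mean, 10.02 ± 3.38 TPM, was above the control mean, 7.84 ± 2.41 TPM (SD, n = 3).

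The fitted log2 fold changes, MWCNT-treated over control, put the size of these differences on 1 scale. At Year 0.5 they were -1.22 (SE 0.26) for *Hba-a1*, -1.23 (SE 0.27) for *Hba-a2*, -1.22 (SE 0.28) for *Hbb*, -1.35 (SE 0.29) for *Alas2*, -0.84 (SE 0.22) for *Slc4a1* and -0.50 (SE 0.38) for *Ahsp*. At Year 1 they were -1.12 (SE 0.13), -1.16 (SE 0.15), -1.11 (SE 0.13), -1.16 (SE 0.12), -0.83 (SE 0.26) and 0.57 (SE 0.33) in the same order. At Year 2 they were -1.997 (SE 0.26), -2.03 (SE 0.26), -1.90 (SE 0.26), -2.03 (SE 0.27), -1.30 (SE 0.36) and -1.33 (SE 0.38). The 3 globins and *Alas2* thus differed from each other by less than their standard errors at each time point, and *Slc4a1* was less low than these at each time point.

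The median log2 fold change of the 6 genes was -1.22, -1.11 and -1.95 at Years 0.5, 1 and 2, against -0.02, 0.00 and -0.01 over all tested genes. By the criterion for a call, 4, 4 and 6 of the 6 genes were lower, where 3.03%, 4.09% and 8.22% of all tested genes were called lower. As the contrast was used to select the genes, nothing is read from these counts. All 3 treated rats were below all 3 control rats for 5, 5 and 6 of the 6 genes, and for 40.7%, 46.8% and 45.7% of all tested genes.

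Single rats bore on the calls. Without replicate 2 of the MWCNT-treated rats at Year 0.5, only *Alas2* of the 6 genes was called, and the log2 fold changes of *Hba-a1*, *Hba-a2* and *Hbb* were -0.93, -0.94 and -0.92. At Year 2, leaving out control replicate 1 ended the calls of *Slc4a1*, at -0.88, and *Ahsp*, at -1.13. The call of *Ahsp* was also lost without control replicate 2, and that of *Slc4a1* without MWCNT replicate 1 or 2, at log2 fold changes of -1.31, -1.16 and -1.10. The globins and *Alas2* were called at Years 1 and 2 whichever rat was left out.

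**Figure D2:**
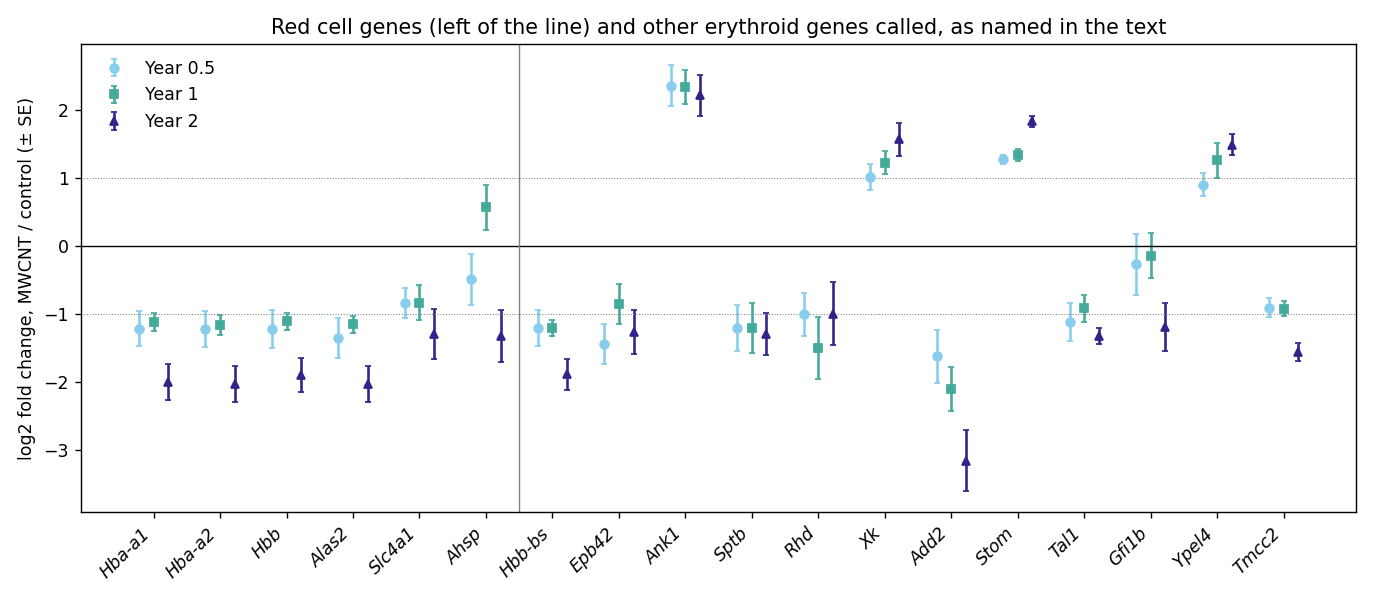
Log2 fold changes, MWCNT-treated over control, with SE from the edgeR fit of the 6 rats of each time point (circles, Year 0.5; squares, Year 1; triangles, Year 2). The 6 red cell genes are left of the vertical line and the other erythroid genes named in the text right of it; dotted lines are the fold limits of a call. The globins and Alas2 lie at like values within each time point, whereas the other genes lie on both sides of 0.

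As a share of all counts, *Hba-a1*, *Hba-a2* and *Hbb* together made up 0.587 ± 0.071%, 0.629 ± 0.097% and 1.11 ± 0.24% in the control rats at Years 0.5, 1 and 2 (SD, n = 3). After MWCNT treatment the shares were 0.235 ± 0.099%, 0.263 ± 0.032% and 0.253 ± 0.091% (SD, n = 3). The lowest share was 0.133% (95% Wilson interval 0.131% to 0.134%, counting error only), in MWCNT replicate 2 of Year 0.5, which was also the library with the most counts. The highest was 1.36% (1.35% to 1.36%), in control replicate 1 of Year 2, so that the share varied 10.2-fold over the 18 rats. Removing the globins before the library sizes were computed changed no call of the 6 genes.

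The control rats had higher levels at Year 2 than before, while the treated rats of the 3 time points lay in the same range. In the model of all 18 rats, the log2 change of the control rats from Year 0.5 to Year 2 was 0.91 (SE 0.27) for *Hba-a1*, 0.89 (SE 0.28) for *Hba-a2*, 0.81 (SE 0.28) for *Hbb*, 0.73 (SE 0.28) for *Alas2*, 0.71 (SE 0.31) for *Slc4a1* and 0.62 (SE 0.39) for *Ahsp*. The same change in the treated rats was 0.14 (SE 0.27), 0.10 (SE 0.28), 0.14 (SE 0.28), 0.05 (SE 0.31), 0.26 (SE 0.34) and -0.21 (SE 0.42). For the globins and *Alas2*, the control rats of Year 2 did not overlap those of Year 0.5 or Year 1, whereas the control rats of Years 0.5 and 1 overlapped, as did all treated groups. The larger fold at Year 2 therefore went with higher control levels, and the treated means of *Hbb* were 2336 ± 1026, 2551 ± 305 and 2422 ± 902 TPM (SD, n = 3). The difference between the log2 fold changes of Year 2 and Year 0.5 was -0.77 (SE 0.39) for *Hba-a1*, -0.67 (SE 0.39) for *Hbb* and -0.68 (SE 0.41) for *Alas2*. For *Ahsp* the fold of Year 2 was lower than that of Year 1 by a log2 difference of -1.89 (SE 0.57).

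Within a rat, the globins kept nearly fixed proportions. The ratio of *Hba-a1* to *Hba-a2* counts ranged from 2.48 to 2.73 over the 18 rats, and the ratio of alpha to beta globin, as TPM of *Hba-a1* and *Hba-a2* over *Hbb*, from 2.17 to 2.54. The highest ratio was 1.10 and 1.17 times the lowest, while the highest level of *Hba-a1* was 10.1 times and that of *Hbb* 9.67 times the lowest. *Alas2* counts per 1000 globin counts were 6.43 ± 0.54 in the control and 6.08 ± 0.73 in the MWCNT-treated rats (SD, n = 9), and the treatments overlapped.

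The proportions of *Slc4a1* and *Ahsp* to globin were less constant. *Slc4a1* counts per 1000 globin counts were 1.07 ± 0.16 in the control and 1.54 ± 0.46 in the MWCNT-treated rats (SD, n = 9), with 0.79 to 1.25 in the former and 0.93 to 2.21 in the latter. *Ahsp* counts per 1000 globin counts were 0.40 ± 0.12 in the control and 0.83 ± 0.29 in the treated rats (SD, n = 9). The treated rats of Year 1 had the most *Ahsp* for their globin, 1.12 ± 0.29 (SD, n = 3), against 0.34 ± 0.07 in the control rats of that time point. At Years 1 and 2, all 3 treated rats had more *Ahsp* per globin count than all 3 control rats. These ratios are built from the contrasts that selected the genes and are given without a test.

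**Figure D3:**
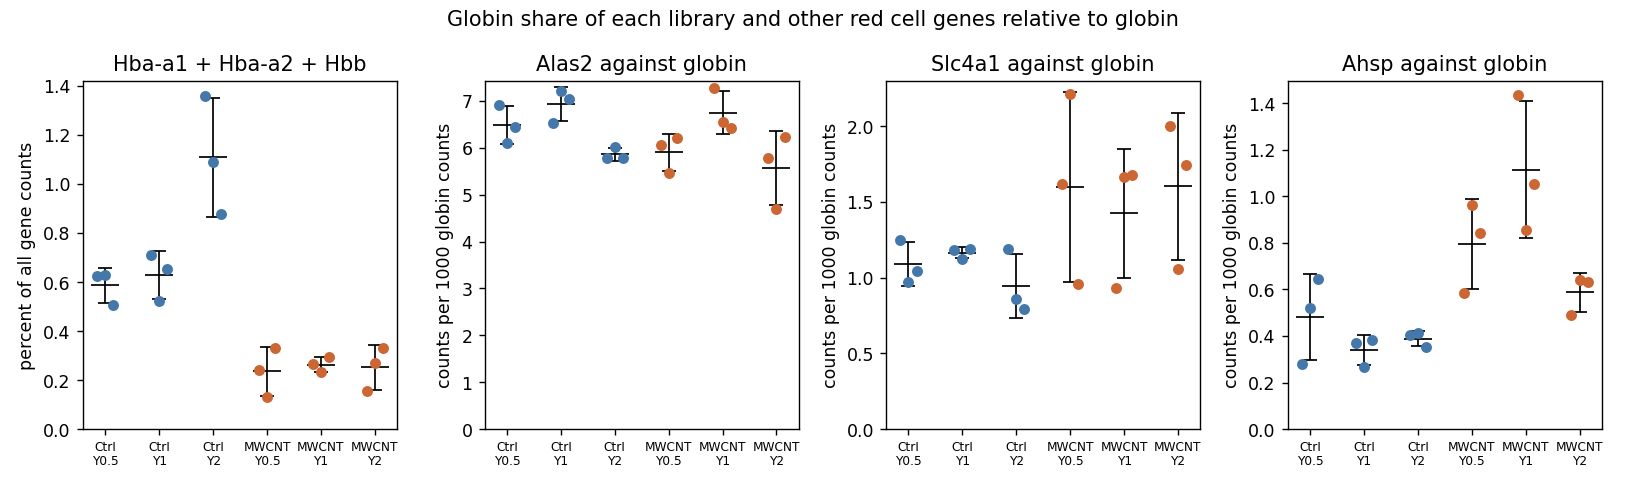
Left panel, percent of all gene counts from Hba-a1, Hba-a2 and Hbb; other panels, counts of Alas2, Slc4a1 and Ahsp per 1000 counts of these globins (linear axes from 0, 1 point per rat, bars for the mean ± SD of 3 rats, blue for control and orange for MWCNT-treated). The globin share separates the treatments, the Alas2 proportion lies between 4.70 and 7.28 in all 18 rats, and the Ahsp proportion is highest in the treated rats of Year 1.

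The genes were then compared rat by rat within each treatment, over log2 CPM values. A family of 6 relations with *Hbb* was tested by two-sided exact permutation. The permutations ran over the rats of a treatment and ignored the time points, so differences between time points also enter these p-values. Among the 9 control rats, *Alas2* followed *Hbb* at a Pearson's r of 0.97 and a Spearman's rho of 1.00 (exact p = 2.76e-06, the smallest possible, and 5.51e-06; adjusted 1.65e-05 and 3.31e-05). Among the 9 treated rats, r was 0.95 and rho 0.87 (exact p = 0.00038 and 0.0045; adjusted 0.0011 and 0.0090). The relation kept an r of 0.90 and 0.74 when the 2 rats with *Hbb* farthest from its median were left out, and of 0.95 and 0.97 when the mean of each time point was removed.

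*Slc4a1* followed *Hbb* among the control rats, with r = 0.88 and rho = 0.88 (exact p = 0.0017 and 0.0031, adjusted 0.0034 and 0.0090), and r was 0.61 without the 2 farthest rats. Among the treated rats no relation was detected, with r = 0.42 and rho = 0.32 (exact p = 0.26 and 0.41, adjusted 0.26 and 0.41), and r was 0.38 without the 2 farthest. For *Ahsp*, r was 0.75 and rho 0.52 in the control rats (exact p = 0.020 and 0.16, adjusted 0.030 and 0.19) and 0.72 and 0.72 in the treated rats (exact p = 0.029 and 0.037, adjusted 0.035 and 0.055). It fell to 0.33 and 0.34 without the 2 farthest rats, so the relations of the uncentred values with *Ahsp* rest on those rats. With the time point means removed, r of *Ahsp* was 0.56 in the control rats (adjusted permutation p = 0.15) and 0.82 in the treated rats (adjusted permutation p = 0.0077). These p-values are approximate, since the deviations cancel within each time point and cannot be exchanged freely among the rats. Without the 2 farthest rats r of these deviations was 0.075 in the control rats and 0.74 in the treated rats. Whether the relations differ between the treatments was not tested.

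The genes whose deviations from the 6 group means were most like the average of the red cell genes over the 18 rats were *Hbb-bs*, a beta globin gene (r = 0.97), and *LOC100134871* (r = 0.96), which overlaps it on chromosome 1. They were followed by *RGD1310587* (r = 0.91), *B4galt2*, *Smad6*, *Galnt18*, *Cldn5*, *Slc6a4*, *RGD1309779* and *Plvap*, with r from 0.87 to 0.90. *Cldn5*, a tight junction protein, and *Plvap*, a component of endothelial diaphragms, are endothelial markers. Of the genes themselves, *Hba-a1*, *Hba-a2*, *Hbb* and *Alas2* correlated with their average at 0.96 to 0.99, *Ahsp* at 0.80 and *Slc4a1* at 0.63. Each of them is part of that average, which raises these values. The 10 genes were picked as the highest of all those compared, so the values describe these libraries.

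*Hbb-bs* repeated the pattern of *Hbb*, a neighbouring beta globin gene with which it may share reads. It ranged from 226 to 512 TPM in control and from 52.0 to 137 TPM in MWCNT-treated rats, and made up 7.95 to 9.26 counts per 100 counts of *Hbb* in the 18 rats. Its log2 fold changes were -1.21 (SE 0.26), -1.21 (SE 0.12) and -1.89 (SE 0.23) at Years 0.5, 1 and 2 (FDR 0.0065, 0.00010 and 0.00016, edgeR quasi-likelihood test). The fetal and embryonic globins were at or near 0. *Hbg1* and *Hbz* had 0 counts in all rats, which allows at most 0.226 CPM in the shallowest library, and *Hbe1* reached 6 counts at most. *Hba-a3*, the third alpha globin gene, was listed at 0 throughout.

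Of 62 other erythroid genes, 59 matched a row and 41, 40 and 42 passed the filter on low counts at Years 0.5, 1 and 2. Of these, 6, 4 and 8 were called lower with treatment, beside 3.03%, 4.09% and 8.22% of all tested genes. *Hbb-bs* is 1 of those called lower at each time point, and since it may share reads with *Hbb* it is not a separate observation. Called higher were 3, 4 and 4, beside 6.07%, 6.13% and 8.17% of all tested genes. The count at Year 0.5 was 4 in all, in place of 9, without MWCNT replicate 2, the rat with the least globin. The median log2 fold change of these genes was -0.23, -0.07 and -0.29, nearer to 0 than that of the globins and *Alas2*. How much of their RNA came from red cells was not tested, so the median describes the list.

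Among 18 red cell membrane genes, the changes went both ways. *Epb42*, protein 4.2 of the band 3 complex, fell by log2 -1.44 (SE 0.29, FDR 0.0044) at Year 0.5 and -1.27 (SE 0.32, FDR 0.0093) at Year 2, and its value was -0.85 at Year 1, short of the fold limit. *Sptb*, beta spectrin, fell at each time point, by log2 -1.21, -1.21 and -1.30 (FDR 0.020, 0.027 and 0.0065). *Rhd*, the Rh blood group antigen, fell at Years 0.5 and 1, by log2 -1.01 and -1.502 (FDR 0.031 and 0.028), and was at -0.995 (FDR 0.11) at Year 2. *Add2*, beta adducin, fell most, by log2 -1.62, -2.11 and -3.16 (FDR 0.010, 0.0011 and 0.00039). All 4 were low, at 3 to 112 counts per rat.

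The membrane genes that rose were *Ank1*, *Xk* and *Stom*. *Ank1*, the ankyrin that links band 3 to spectrin, rose by log2 2.35, 2.33 and 2.21 (FDR 0.00044, 0.00016 and 0.00032), from 8 to 27 counts in control to 58 to 106 counts in treated rats. *Xk*, which carries the Kx antigen, rose by log2 1.01, 1.22 and 1.56 (FDR 0.0038, 0.00065 and 0.00075). *Stom*, stomatin, an integral protein also found in the membranes of many other cells, rose by log2 1.27, 1.33 and 1.83 (FDR 5.5e-06, 1.1e-05 and 6.0e-07), from 119.5 to 147 TPM in control to 270 to 402 TPM in treated rats.

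The genes of heme synthesis did not share the pattern of *Alas2*. Of 12 genes, which include *Alas1*, the synthase of other tissues, 0 were called at any time point by edgeR or by DESeq2. By edgeR, 4, 6 and 5 genes had an FDR below 0.05 but stayed under the fold limit. Over all tested genes, 5549 of 14315, 5913 of 14345 and 7067 of 14361 had an FDR below 0.05, whatever their fold. Nothing is therefore read from the counts of the heme synthesis genes. Of the 4, 6 and 5 genes, 3, 6 and 4 were higher and 1, 0 and 1 lower in the treated rats, and the counts at an unadjusted p below 0.05 were the same. The log2 fold changes of the 12 genes lay between -0.47 and 0.99, and their median was 0.11, 0.30 and 0.19. Of the erythroid regulators, *Tal1*, a transcription factor of blood and vessel cells, fell at Year 0.5, by log2 -1.12 (FDR 0.011), and Year 2, by -1.33 (FDR 2.6e-05), and was at -0.92 at Year 1. *Gfi1b*, a transcriptional repressor of the erythroid and platelet lineages, fell at Year 2, by log2 -1.19 (FDR 0.020). *Gata1* and *Klf1*, transcription factors of red cell precursors, had at most 17 and 26 counts in any rat.

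Of the red cell enzymes and reticulocyte proteins, *Ypel4* rose at Years 1 and 2, by log2 1.25 (FDR 0.0047) and 1.49 (FDR 4.9e-05). *Tmcc2* fell at Year 2, by log2 -1.56 (FDR 2.1e-05), and was at -0.91 and -0.93 before. Whether the fold changed between time points was tested as an interaction over all 18 rats. None of 45 erythroid genes differed between Year 1 and Year 0.5 (0 also by DESeq2, 3 at an unadjusted p below 0.05), where 0% of all genes were called (1260 genes at an unadjusted p below 0.05, 6 genes called by DESeq2). DESeq2 called 3 and 5 of the erythroid genes between Year 2 and Years 0.5 and 1. Its shares of all genes are not given here, so nothing is read from these counts. By edgeR, *Stom* was the 1 gene of the 45 that differed between Year 2 and each earlier time point. By the same test, 1.31% and 0.478% of all genes were called against Year 0.5 and Year 1. The call against Year 0.5 was lost (0 genes) without MWCNT replicate 3 of Year 0.5 or MWCNT replicate 1 of Year 2. The call against Year 1 was lost with no filter on low counts, with scaling by library size alone, and without any 1 of 11 of the 18 rats.

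Over time within the control rats, 0 of the 45 erythroid genes were called from Year 0.5 to Year 2 by edgeR or DESeq2, with 10 at an unadjusted p below 0.05 and 0.633% of all genes called. Within the treated rats, *Add2* alone was called, at log2 -1.72 (SE 0.50, FDR 0.031), with 2.34% of all genes called. *Hbb-bs* was called in neither comparison over time. By edgeR, its log2 change was 0.85 (SE 0.26, FDR 0.055) in the control rats, a size under the fold limit. It was 0.18 (SE 0.26, FDR 0.71) in the treated rats.

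Platelets are the other blood cells without a nucleus that carry RNA in the circulation. Of 14 platelet markers, 10 were tested, and 3, 3 and 4 fell and 1 rose at Years 0.5, 1 and 2, beside 3.03%, 4.09% and 8.22% of all tested genes called lower and 6.07%, 6.13% and 8.17% called higher. The total of 4 at Year 1 was 1 without control replicate 3 and 2 without control replicate 2 or MWCNT replicate 2 or 3. The gene that rose was *Pf4*, platelet factor 4, the most abundant of the list, by log2 1.47, 1.84 and 1.92 (FDR 6.0e-05, 9.3e-05 and 9.5e-06). The summed level of all 14 markers was higher after treatment, at 89.5 to 107 TPM in the control rats and 130 to 167 TPM in the treated rats. Without *Pf4* the direction was reversed. The sum of the other 13 markers was 51.2 to 65.7 TPM in the control rats and 23.4 to 37.8 TPM in the treated rats. It was lower without overlap, as were 19.6% of the 14843 single genes tested over the 18 rats. In the control rats of Year 2 this sum, at 55.5 to 65.7 TPM, overlapped with Year 0.5, at 51.2 to 62.9 TPM, and Year 1, at 58.3 to 61.5 TPM, whereas the globins did not overlap. The sum mixes directions. From Year 0.5 to Year 2 in the control rats, *Itgb3*, the most abundant of the 13, changed by log2 -0.33 (FDR 0.034, edgeR quasi-likelihood test). *Gp1bb* changed by log2 0.61 (FDR 0.27, same test). Of 12 platelet markers tested over the 18 rats, 0 were called in this comparison.

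Markers of other lung cells moved beside the red cell genes, and their counts of calls stand beside the same shares of all tested genes. The summed level of 10 endothelial markers, led by *Plvap*, was 4242 to 5703 TPM in control and 1183 to 2894 TPM in treated rats, and 3, 1 and 6 of the 10 were called lower. Of 8 macrophage markers, led by *Lyz2*, 6, 5 and 7 were called higher, with sums of 24216 to 30357 TPM in control and 54971 to 63995 TPM in treated rats. Sums of 10 heart muscle markers, led by *Actc1*, were 75.2 to 809 TPM in control and 16.4 to 239 TPM in treated rats and overlapped, and 7 of 8, 2 of 8 and 1 of 7 tested were called lower. Of 6 lung markers, 1, 1 and 2 were called higher and 0, 0 and 1 lower. The gene called lower was *Cdh5*, which is also among the 10 endothelial markers and so is counted in both lists. *Sftpc*, the surfactant protein of alveolar type II cells, was at 17721 to 23609 TPM in control and 32139 to 39059 TPM in treated rats, so that lung tissue was present in each library. The part of these cell types in the globin levels was not tested.

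The ratio of summed globin to summed endothelial marker TPM, computed after the data had been examined, was 3.67 ± 0.19, 4.38 ± 0.51 and 7.29 ± 1.19 in the control rats at Years 0.5, 1 and 2 (SD, n = 3). In the treated rats it was 2.98 ± 0.79, 3.56 ± 0.24 and 5.38 ± 1.12 (SD, n = 3). Relative to the endothelial markers, the treatments thus overlapped at Year 0.5. At Year 1 they barely separated, at 3.29 to 3.76 in the treated and 3.79 to 4.74 in the control rats. At Year 2 the ranges were 4.09 to 6.08 and 6.39 to 8.64. Both treatments were higher at Year 2 than before. The sum is weighted to its most abundant markers, *Plvap* and *Cldn5*, with log2 fold changes of -2.23 and -1.41 at Year 2. The 10 markers ranged from the value of *Plvap* to -0.29 for *Emcn* at that time point. The ratio therefore depends on the markers summed, and ratios to single markers were not computed. A treatment difference in this ratio was not tested.

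**Figure D4:**
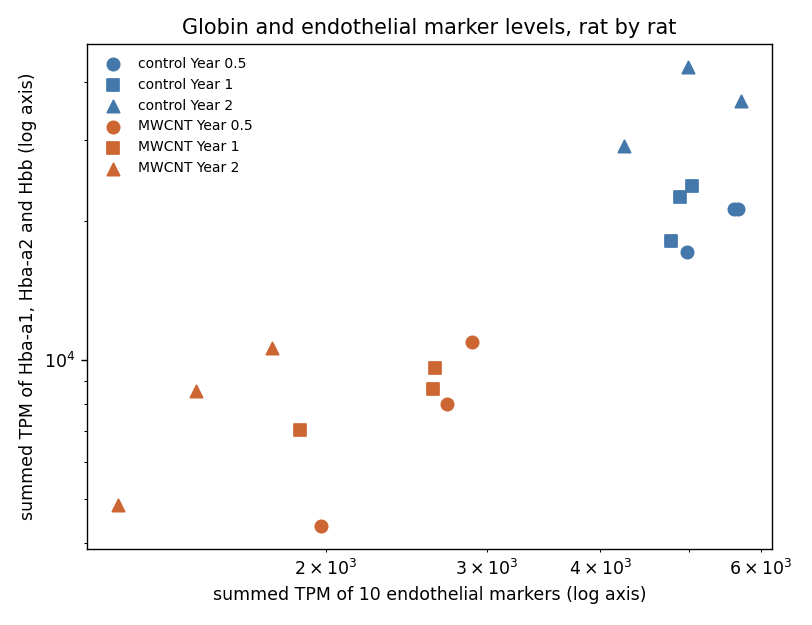
Summed TPM of Hba-a1, Hba-a2 and Hbb against summed TPM of 10 endothelial markers, 1 point per rat, both axes logarithmic (blue, control; orange, MWCNT-treated; circles, squares and triangles for Years 0.5, 1 and 2). Treated rats lie lower on both axes, and the rats of Year 2 have more globin for their endothelial markers than the other rats of their treatment.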

How the data were processed

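Lungs of 18 rats were sequenced from total RNA (NEBNext Ultra II libraries), and every rat was a separate animal. The authors mapped the reads with CLC Genomics Workbench to the Rnor_6.0 (rn6) genome, per the submitters' processing notes, and deposited raw counts per gene, which are whole numbers. The TPM columns deposited beside them are scaled by the authors' software for gene length and library total. The handling of strand and of reads that map to several copies is not given in the sources used here. The deposited RPKM and TMM-adjusted CPM columns and the authors' own comparisons (group means, fold changes and p-values) were left out. The 3 tables were joined on the gene name and identifier.

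The counts were tested with edgeR 4.0.16 in R 4.3.3 by the quasi-likelihood test, after filterByExpr at its defaults (count of 10, total of 15) and TMM scaling. Fits used the 6 rats of each time point, and interactions and effects of time used 1 model of all 18 rats with a mean per group. The study's criterion for a DEG was used (Benjamini-Hochberg FDR under 0.05, log2 fold change over 1 in size), and for interactions an FDR under 0.05. Standard errors were derived from the fold change and the F statistic. Relations across rats used log2 CPM (prior count 2) and exact permutation tests in Python 3.11.15 with scipy 1.17.1. The scripts were tested on simulated data. Alternatives included DESeq2 1.42.0, limma 3.58.1 on log2(TPM + 1) and log2(TPM + 0.1), other filters and scalings, the likelihood ratio test, the globins removed from library sizes, and each rat left out in turn.

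The red cell genes and all gene lists were chosen with earlier results of these data known. Named are all matched red cell genes, each erythroid gene called at 1 or more time points or in an interaction, the most abundant gene of each other marker list, and the 10 genes most like the red cell genes. *Alas1*, *Hbg1*, *Hbz*, *Hbe1*, *Hba-a3*, *Gata1*, *Klf1*, *Emcn*, *Cdh5*, *Itgb3* and *Gp1bb* are named in addition, chosen after their values were seen. A further called erythroid gene is not reported here. The replicate numbers recur in the labels of both treatments, but pair no rats: deviations from the group means correlated at 0.0068 on average between rats of the same number (-0.15 to 0.11) and at -0.0032 between others. Depth ranged from 13297643 to 21130757 counts per rat, and intervals and limits from counts cover counting error only.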

Additional observations from a re-analysis of the deposited data

Results flagged for a closer look

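*Stom*, the gene of stomatin, was singled out because its response to treatment differed between time points by a test of the interaction. Its log2 fold change was 1.27 (SE 0.07) at Year 0.5, 1.33 (SE 0.09) at Year 1 and 1.83 (SE 0.08) at Year 2. The difference was 0.57 (SE 0.10, FDR 0.014) between Year 2 and Year 0.5 and 0.51 (SE 0.10, FDR 0.041) between Year 2 and Year 1, in the edgeR quasi-likelihood test of all 18 rats. Its level was 130.0 ± 3.16, 143 ± 6.62 and 127 ± 8.88 TPM in the control rats and 283 ± 13.7, 304 ± 15.7 and 388 ± 17.7 TPM in the treated rats (SD, n = 3), so that the treated rats of Year 2 lay above all others. *Stom*, of the red cell membrane list, moved opposite to the globins. The call against Year 0.5 was lost (0 genes) without MWCNT replicate 3 of Year 0.5 or MWCNT replicate 1 of Year 2. The call against Year 1 was lost with no filter on low counts, with scaling by library size alone, and without control replicate 1 or 2 of Year 0.5, 2 or 3 of Year 1 or 1 or 2 of Year 2, or MWCNT replicate 1 of Year 0.5, 1 or 3 of Year 1 or 1 or 2 of Year 2.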

How the results depend on the processing

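The 6 red cell genes kept the sign of their log2 fold changes at each time point under all alternatives. Calls without the fold limit gave 5549, 5913 and 7067 genes at Years 0.5, 1 and 2, with 22, 21 and 28 erythroid genes and 7 platelet markers at Year 1. With limma on log2(TPM + 1), 4 erythroid genes at Year 0.5 and 2 platelet markers at Year 1 were called, and with log2(TPM + 0.1) 19 erythroid genes at Year 2. With these, the median log2 fold change of the 6 genes at Year 1 was -1.342 and -1.343. With at least 10 counts in every rat, 2, 2 and 1 platelet markers were called, 3 erythroid interactions of Year 2 with Year 1, and 0 effects of time in treated rats. DESeq2 gave 3 and 5 interactions of Year 2 with Years 0.5 and 1, and the latter gave 0 without a filter and 0 with library sizes alone. The relation of *Hbb* with *Ahsp* in control rats fell to r = 0.556 with the time point means removed. The cause was not tested.

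With 1 rat left out, 960 to 1443, 1291 to 1572 and 2121 to 2465 genes were called, 4 to 9, 6 to 10 and 11 to 14 erythroid genes, and 4 to 5, 1 to 5 and 5 to 6 platelet markers. Interactions of Year 2 numbered 0 to 2 against Year 0.5 and 0 to 4 against Year 1, and effects of time in treated rats 0 to 2. The median of the 6 genes was -1.52 to -0.93, -1.23 to -1.01 and -2.19 to -1.70. The platelet count of Year 1 was lowest, at 1, without control replicate 3. Of 356 values of the main comparisons under the alternatives, 302 kept their call or stayed within 1.5 times the count, as did 300 of 306 values of single genes.

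The replicate number as a block gave 1279, 1493 and 2291 called genes, 8, 8 and 12 erythroid genes, 4, 4 and 5 platelet markers, 1 interaction of Year 2 with each earlier time point, and medians of -1.30, -1.11 and -1.98, and changed no other call. The numbers pair no animals.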
